A study of Mus musculus with 56 samples.

Results

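The enzymes of glycolysis and of the pentose phosphate pathway were followed by RNA-seq in mouse bone marrow progenitors. They were chosen by name, as a list of 31 mouse genes looked up by Entrez ID in the deposited table of 24424 genes, and all 31 were found. The series as a whole profiled 5-hydroxymethylcytosine in small numbers of cells; of its 56 samples, 15 are RNA-seq libraries. The 4 groups used here were 3 libraries of T2F3 granulocyte-macrophage progenitors (GMP), 5 of WT GMP, 3 of T2F3 multipotent progenitors (MPP) and 4 of WT MPP. T2F3 mice carried the genotype Tet2-/-Flt3ITD, that is, loss of the DNA dioxygenase gene Tet2 together with the internal tandem duplication (ITD) of Flt3, a gene for a cytokine receptor kinase, and WT mice were wild-type. All were on the C57BL/6 strain. Both populations were sorted as lineage-negative cells bearing c-Kit: GMP lacked Sca-1 and carried CD34 and the Fc receptors CD16 and CD32, while MPP carried Sca-1 and CD48 but not CD150. The animals' age, the promoter or cells in which the alleles act and any pooling of animals are not given in the sources used here.

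Glycolysis splits glucose into pyruvate and yields ATP and NADH, and lactate dehydrogenase turns pyruvate into lactate when it is not burned in mitochondria. The pentose phosphate pathway branches off at glucose-6-phosphate: its oxidative arm makes NADPH and its other arm makes ribose phosphate for nucleotides. Blood stem cells are known for reliance on glycolysis, and neutrophil-lineage cells for their use of NADPH in the oxidative burst. Many of the steps are carried by several isozymes, encoded by different genes and used by different tissues.

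Values are regularized log2 expression values as the authors deposited them, so a difference of 1 is 2-fold. They are not scaled by gene length, so levels are compared between libraries and not between genes. Of the 31 enzymes, 29 averaged 4 or more across the libraries and were tested, among 12133 genes in all. None of the 29 passed through a single high group, since the lowest group mean among them was 5.00 (Aldoc in WT GMP). The enolase genes Eno1 and Eno2 fell below that filter. Eno1 was listed between -0.90 and -0.72 in every library, while Eno1b, an annotated copy of it with Eno1 among its synonyms, was listed between 11.81 and 13.06. Reads of such near-identical copies cannot be told apart by these values, and Eno1b was looked up after the values of Eno1 were seen. Gapdh, Aldoa, Ldha, Pgk1 and Pgam1 also have annotated pseudogene copies that could take part of their reads. Eno2, the neuronal enolase, ran from 2.47 to 3.37 and is not described further.

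Tet2 itself gave no check of the genotype, because a gene-level value does not test a partial deletion. It stood at 10.12 ± 0.21 in T2F3 GMP (SD, n = 3), 10.06 ± 0.13 in WT GMP (SD, n = 5), 9.75 ± 0.13 in T2F3 MPP (SD, n = 3) and 9.79 ± 0.08 in WT MPP (SD, n = 4). Flt3 was higher in T2F3 GMP, at 10.09 ± 0.33 (SD, n = 3), than in WT GMP, at 8.81 ± 0.07 (SD, n = 5; difference 1.28, adjusted p = 8.23e-07 by limma), and did not pass between T2F3 MPP and WT MPP (-0.06). The sorting-gate genes followed the gates in part. Fcgr3, which encodes CD16, was higher in GMP of either genotype, by 1.88 in T2F3 and 2.11 in WT. Ly6a, which encodes Sca-1, was lower in GMP but still read at 7.61 ± 0.14 in T2F3 GMP (SD, n = 3) and 7.12 ± 0.14 in WT GMP (SD, n = 5). Slamf1, which encodes CD150, was low in all groups, with means from 1.94 to 2.95. Of 6 sorting-gate genes tested, 3 were higher and 1 lower in T2F3 MPP, and 2 were higher and 0 lower in T2F3 GMP. These are 66.7% and 33.3%, against 40.3% and 15.3% of all genes tested. In bulk RNA, fewer cells of a type and less RNA per cell cannot be told apart. Nothing in the labels ties each library to a separate animal, so the p-values reflect only how these libraries vary, which may be technical.

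A pair of libraries stood apart within their groups. Ribosomal protein genes were raised in T2F3 GMP 2 by 0.79 and in WT GMP 1 by 1.06 (log2, median over 74 genes), relative to the average of the group's remaining libraries. The same libraries were low in the enzymes studied here, by a median of -0.31 over 29 enzymes in T2F3 GMP 2 and of -0.33 in WT GMP 1, while the median over all tested genes was -0.03 and -0.02. In T2F3 GMP 2, 24 of 29 enzymes lay below that average, and in WT GMP 1, 22 of 29 did. T2F3 GMP 1 lay the other way, with a median of 0.30 and 26 of 29 enzymes above. T2F3 GMP 3 had a median of 0.10 and 22 of 29 above, with ribosomal protein genes at -0.61. Both were measured from an average that includes T2F3 GMP 2, so the deviations within this group are not independent.

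**Figure D1:**
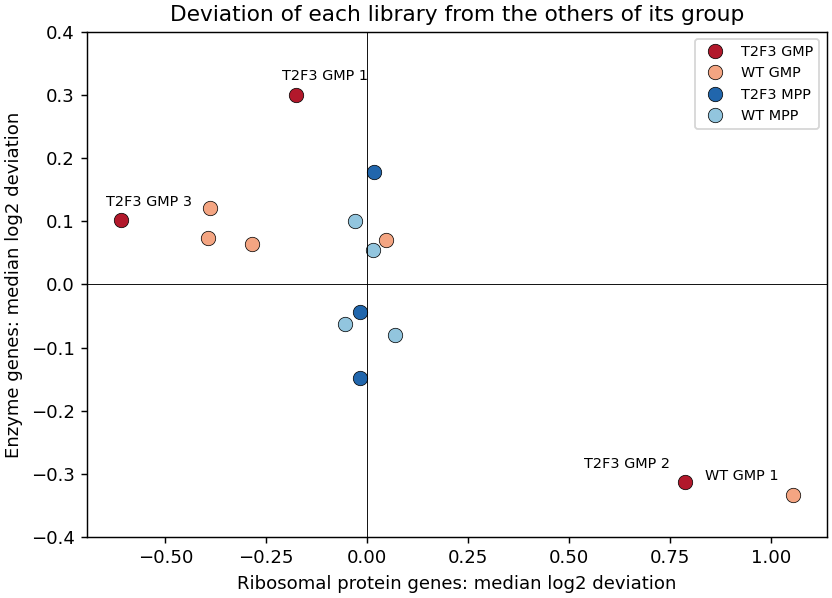
Median log2 deviation of the 29 enzyme genes (vertical axis) against that of 74 ribosomal protein genes (horizontal axis) for each of the 15 libraries, measured from the mean of the other libraries of the same group. T2F3 GMP 2 and WT GMP 1 lie at the lower right, at -0.31 and -0.33 for the enzymes, and the MPP libraries lie near 0 on the horizontal axis.

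The step from MPP to GMP in WT marrow moved nearly the whole pathway. Of 29 enzymes tested, 25 passed an adjusted p of 0.05 (limma, Benjamini-Hochberg over all genes tested), 21 higher and 4 lower in GMP. That is 86.2% of the enzymes, against 48.6% of all 12133 genes tested (25.4% higher and 23.2% lower). The groups did not overlap for 23 enzymes (19 higher and 4 lower), against 43% of all genes tested (22.6% higher and 20.4% lower). The median difference, GMP minus MPP, was 0.69 over the 29 enzymes and 0.03 over all genes tested. After median centring of the libraries, 42.2% of all called genes were higher in GMP, against 52.2% as deposited, while the enzymes split into 21 higher and 5 lower.

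All 7 pentose phosphate enzymes were higher in WT GMP. Pgd, 6-phosphogluconate dehydrogenase, which makes the second NADPH of the oxidative arm, read 11.64, 12.11, 12.20, 12.26 and 12.27 in WT GMP, against 10.68, 10.72, 10.66 and 10.82 in WT MPP. Every GMP library lay above every MPP library, with WT GMP 1 the lowest of the GMP libraries. The difference was 1.38 ± 0.13 (SE), or 2.60-fold, with an adjusted p of 4.87e-07. Taldo1, the transaldolase of the arm that makes sugar phosphates, read 11.65, 11.76, 11.62, 11.71 and 11.53 in WT GMP and 10.79, 10.74, 10.69 and 10.77 in WT MPP, again with no overlap. It was 1.87-fold higher (0.90 ± 0.10, SE, adjusted p = 1.53e-06). Pgls, which opens the lactone ring made by glucose-6-phosphate dehydrogenase, read 10.51, 10.61, 10.32, 10.39 and 10.32 in WT GMP and 9.79, 9.49, 9.50 and 9.85 in WT MPP. Its groups lay apart too, by 0.77 ± 0.11 (SE, adjusted p = 1.64e-05). G6pdx, the glucose-6-phosphate dehydrogenase that commits glucose to the pathway, was 1.0 higher (2.00-fold). The isomerase Rpia (0.80), the epimerase Rpe (0.84) and the transketolase Tkt (0.80) rose as well. Tkt missed the threshold under quantile normalization (0.39, adjusted p = 0.101).

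At the entry to glycolysis the hexokinases, which trap glucose as glucose-6-phosphate, did not move alike. Hk3, an isozyme known from white blood cells, read 12.24, 12.43, 12.63, 12.75 and 12.49 in WT GMP, against 11.46, 11.28, 11.50 and 11.48 in WT MPP. The groups did not overlap, and Hk3 was 2.12-fold higher in GMP (1.08 ± 0.12, SE, adjusted p = 1.45e-06). Hk2, the isozyme typical of muscle and of growing cells, rose by 0.68 ± 0.14, and the isomerase Gpi1, the next enzyme, by 0.94 ± 0.15. Hk1, the widely expressed isozyme, did not pass the threshold, and its 95% interval was -0.23 ± 0.36. Under quantile normalization it passed as lower (-0.43, adjusted p = 0.0370), and with the ribosomal protein level as a covariate it stood at 0.09.

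Phosphofructokinase, the main control point of glycolysis, has genes named for muscle, liver and platelet subunits. Pfkm, the muscle subunit, read 7.77, 8.04, 7.95, 7.85 and 8.14 in WT GMP, against 9.09, 8.92, 8.97 and 9.07 in WT MPP. It was lower in every GMP library, 2.09-fold on average (-1.06 ± 0.09, SE, adjusted p = 9.33e-08), the smallest p among the enzymes in this comparison. Pfkp, the platelet subunit, was 0.61 ± 0.12 higher (adjusted p = 4.26e-04). Pfkl, the liver subunit, did not pass, with a 95% interval of -0.15 ± 0.37. In the annotation 7 of the 31 enzymes overlap another expressed gene, namely Pfkm (Senp1), Pfkp (Pitrm1), Hk3 (Unc5a), Tpi1 (Spsb2), Pfkfb2 (Yod1), G6pdx (Ikbkg) and Rpe (Kansl1l). Reads of such pairs may be shared, and whether the authors counted by strand is not given in the sources used here.

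The fructose-2,6-bisphosphate enzymes, which set the level of the activator of phosphofructokinase, were split. Pfkfb4 read 8.58, 8.53, 8.51, 9.02 and 8.36 in WT GMP and 7.64, 7.59, 7.83 and 7.53 in WT MPP. That is a rise of 0.96 ± 0.12 without overlap (SE, adjusted p = 6.19e-06). Pfkfb3 was 0.50 higher, with groups that overlapped, and Pfkfb2 was -0.48 on the same scale, lower in every GMP library.

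The aldolases went opposite ways. Aldoa, the aldolase of muscle and of most cells, rose by 0.85 ± 0.14 in WT GMP. Aldoc, the isozyme known from brain, read 5.10, 5.22, 4.69, 4.97 and 5.03 in WT GMP and 6.06, 5.95, 6.14 and 5.91 in WT MPP. All GMP libraries were lower, by 2.02-fold (-1.01 ± 0.12, SE, adjusted p = 2.47e-06). Further down, the triose phosphate enzymes Tpi1 (0.47) and Gapdh (0.69) and the ATP-forming kinase Pgk1 (0.71) were higher in GMP. Pgam1, the mutase ahead of enolase, read 12.59, 12.69, 12.60, 12.56 and 12.72 in WT GMP, against 11.72, 11.66, 11.64 and 11.78 in WT MPP. It was 1.90-fold higher (0.93 ± 0.10, SE, adjusted p = 9.36e-07) and its groups lay apart. The pyruvate kinase Pkm (0.75), Eno1b (1.01, chosen after its values were seen) and the lactate dehydrogenase genes Ldha (0.53) and Ldhb (0.58) were higher too. Under quantile normalization Pkm and Tpi1 missed the threshold, at adjusted p = 0.127 and 0.0526, and with the ribosomal protein covariate Ldhb did (0.0505).

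The pyruvate dehydrogenase kinases, which hold pyruvate out of the citrate cycle by switching off its dehydrogenase, did not rise. Pdk2 was -0.92 ± 0.15 (SE, adjusted p = 9.38e-05), lower in every WT GMP library, with WT GMP 1 the lowest at 5.77. Pdk1 and Pdk3 did not pass, with 95% intervals of -0.22 ± 0.21 and 0.06 ± 0.16. Pdk1 passed as lower after median centring (-0.28, adjusted p = 0.0277), under quantile normalization (0.00320), without WT MPP 3 (0.0483), and with T2F3 GMP 2 and WT GMP 1 left out (-0.21, 0.0282).

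Other gene sets moved between the same libraries. Of 18 neutrophil genes, 17 were higher in WT GMP and 0 lower, and their summed level ran from 18.45 to 18.81 in WT GMP and from 16.38 to 16.55 in WT MPP (log2 of the sum). Of 20 cell cycle genes, 11 were higher in WT GMP and 0 lower, with summed levels from 15.65 to 15.80 in WT GMP and from 15.30 to 15.47 in WT MPP. Of 74 ribosomal protein genes, 29 were higher and 0 lower. The shares called were 94.4% of the neutrophil, 55% of the cell cycle and 39.2% of the ribosomal protein genes, against 48.6% of all genes tested. For the sets below they were 76.5% (monocyte and macrophage), 100% (basophil, mast cell and eosinophil), 81.2% (dendritic), 92.9% (erythroid) and 88.9% (B lymphoid). Monocyte and macrophage genes were higher in 13 of 17 and lower in 0, with summed levels from 14.99 to 15.29 in WT GMP and from 13.40 to 13.81 in WT MPP. Basophil, mast cell and eosinophil genes were higher in 9 of 10 and lower in 1, from 13.59 to 14.06 in WT GMP and from 11.46 to 11.78 in WT MPP. Lower in WT GMP were 13 of 16 dendritic cell genes (12.33 to 12.57 in WT GMP, 13.27 to 13.91 in WT MPP), 12 of 14 erythroid genes (11.69 to 12.09 in WT GMP, 12.26 to 12.62 in WT MPP) and 8 of 9 B lymphoid genes (8.89 to 9.42 in WT GMP, 9.41 to 10.04 in WT MPP). The part of these sets in the enzyme differences was not tested, apart from a fit with the ribosomal protein level of each library as a covariate, in which 24 of 29 enzymes passed, or 82.8%, against 58.5% of all genes.

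**Figure D2:**
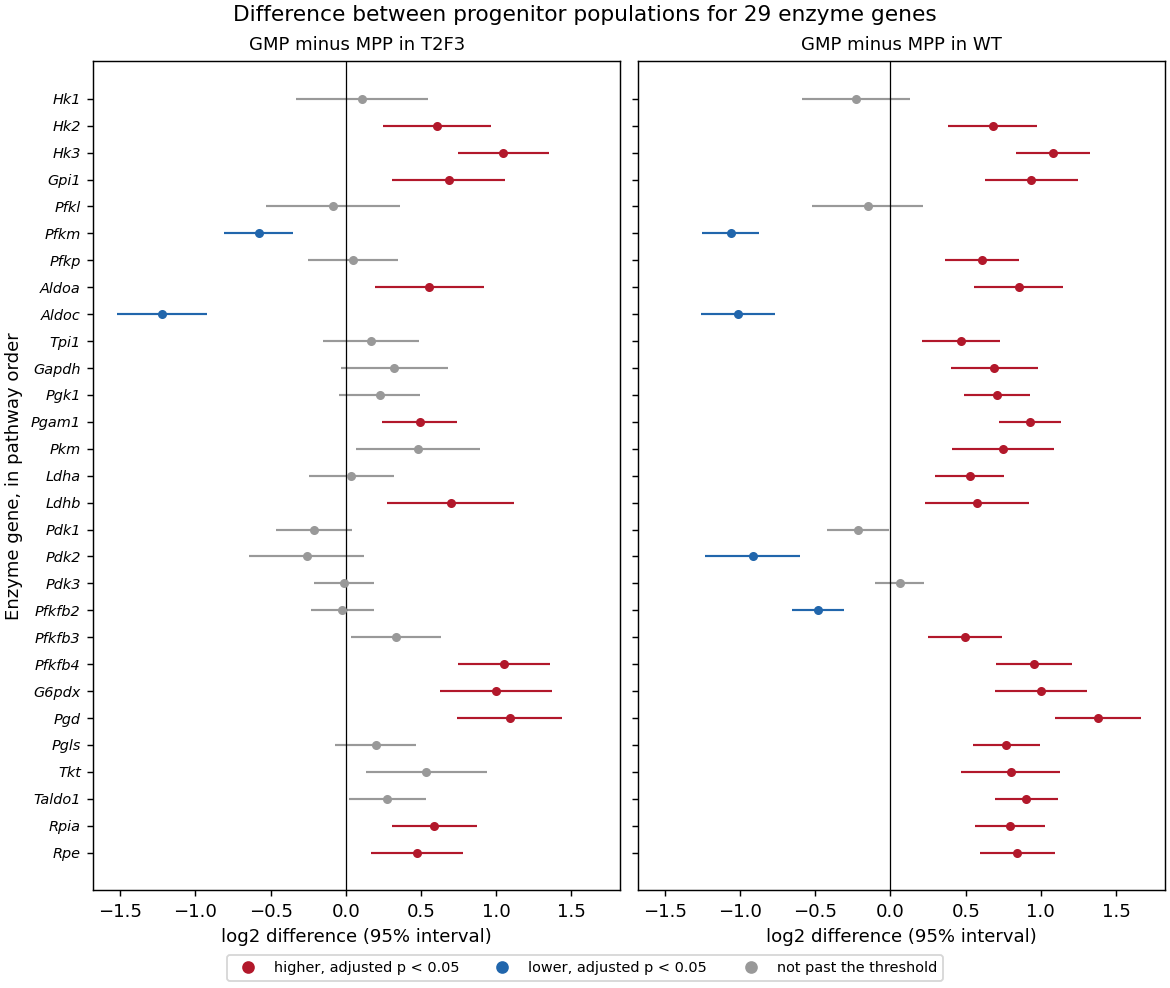
Log2 difference, GMP minus MPP, of the 29 enzyme genes tested, in T2F3 on the left and in WT on the right, with 95% intervals from the limma fit; red marks genes higher and blue genes lower at an adjusted p below 0.05. In T2F3 11 genes lie to the right and 2 to the left past the threshold, and in WT 21 lie to the right and 4 to the left.

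In T2F3 marrow the same step gave fewer calls. Of 29 enzymes, 13 passed, 11 higher and 2 lower in GMP, which is 44.8%, against 22.2% of all genes tested (10.5% higher and 11.7% lower). The groups did not overlap for 14 enzymes, 12 higher and 2 lower, against 33.5% of all genes tested (16.1% higher and 17.4% lower). The median difference was 0.32 over the enzymes and 0.01 over all genes. The count was 8 without T2F3 GMP 1, 14 without T2F3 GMP 2 and 18 with T2F3 GMP 2 and WT GMP 1 both left out, which is 27.6%, 48.3% and 62.1% of the enzymes, against 17.1%, 21.5% and 31.6% of all genes in the same fits. The 2 groups compared here have 3 libraries each, against 5 and 4 in WT, and an enzyme that passed in one genotype and not in the other is not shown to differ between them.

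Pgd read 11.95, 11.34 and 11.71 in T2F3 GMP, against 10.44, 10.60 and 10.70 in T2F3 MPP. The groups lay apart, by 1.09 ± 0.16 (SE, adjusted p = 1.10e-04), and T2F3 GMP 2 was the lowest of the GMP libraries. G6pdx read 11.18, 10.57 and 11.09 in T2F3 GMP and 9.69, 10.05 and 10.11 in T2F3 MPP. It was 2.00-fold higher (1.0 ± 0.18, SE, adjusted p = 4.43e-04), also without overlap. Rpia, which makes ribose-5-phosphate, read 10.34, 9.79 and 10.08 in T2F3 GMP and 9.48, 9.38 and 9.57 in T2F3 MPP, a rise of 0.59 ± 0.13 (adjusted p = 0.00367). Rpe also passed (0.47), whereas Tkt (0.53, adjusted p = 0.0544), Taldo1 (0.28) and Pgls (0.20) did not.

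Hk3 read 12.33, 12.05 and 12.25 in T2F3 GMP, against 11.42, 11.0 and 11.06 in T2F3 MPP. It was 1.05 ± 0.14 higher (SE, adjusted p = 4.19e-05) and did not overlap. Pfkfb4 read 8.88, 8.91 and 8.60 in T2F3 GMP and 7.64, 7.91 and 7.68 in T2F3 MPP, a 2.08-fold rise (1.05 ± 0.14, adjusted p = 4.37e-05). Pgam1 read 12.81, 12.39 and 12.58 in T2F3 GMP and 11.95, 12.14 and 12.22 in T2F3 MPP. These groups lay apart as well, by 0.49 ± 0.12 (adjusted p = 0.00580, and 0.0875 under quantile normalization).

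Aldoc and Pfkm, the 2 enzymes that fell, were also among the 4 lower in WT GMP. Aldoc read 6.41, 6.82 and 6.72 in T2F3 GMP, against 7.93, 7.84 and 7.84 in T2F3 MPP, so every GMP library was lower. The difference was -1.22 ± 0.14 (SE, adjusted p = 7.95e-06). Pfkm read 7.88, 7.83 and 8.13 in T2F3 GMP and 8.58, 8.41 and 8.59 in T2F3 MPP, a difference of -0.58 ± 0.11 (adjusted p = 8.11e-04). Gpi1 (0.68), Hk2 (0.61), Ldhb (0.70) and Aldoa (0.56) rose, but each lost its call without T2F3 GMP 1. The adjusted p was then 0.0621, 0.0553, 0.0659 and 0.154 in that order, and for Rpe it was 0.0919. Of the 5, all but Gpi1 also lost the call without one or more other libraries, with adjusted p up to 0.0795 for Aldoa (without T2F3 MPP 1), 0.0693 for Hk2 (T2F3 MPP 1), 0.0937 for Ldhb (T2F3 MPP 2) and 0.111 for Rpe (T2F3 GMP 2). Pkm stood at 0.48 (adjusted p = 0.0954) and passed without T2F3 GMP 2 (0.71, adjusted p = 0.00750). Tkt (0.00434) and Gapdh (0.0386) passed in the same way. With WT GMP 1 left out as well, Tpi1 (0.33, 0.0311) and Pfkfb3 (0.41, 0.0111) passed too. Beside these, 18 of 18 neutrophil genes, 8 of 20 cell cycle genes, 9 of 17 monocyte and macrophage genes and 6 of 10 basophil, mast cell and eosinophil genes were higher in T2F3 GMP, and 14 of 16 dendritic cell genes were lower. Counting both directions, the shares called were 100%, 40%, 52.9%, 70% and 87.5% in that order, against 22.2% of all genes tested. Summed neutrophil levels ran from 18.30 to 19.19 in T2F3 GMP and from 16.21 to 16.44 in T2F3 MPP. Summed monocyte levels ran from 15.65 to 16.27 in T2F3 GMP and from 14.52 to 15.15 in T2F3 MPP, and dendritic levels from 15.0 to 15.20 in T2F3 GMP and from 15.45 to 16.27 in T2F3 MPP. The part of these sets was not tested.

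The genotype comparison in MPP asked how loss of Tet2 with the Flt3 duplication altered the enzymes in the less mature cells. Of 29 enzymes, 10 passed, 7 higher and 3 lower in T2F3, or 34.5%, against 40.3% of all genes tested (20.7% higher and 19.6% lower). The groups did not overlap for 13 enzymes, 8 higher and 5 lower, against 54.1% of all genes tested (28.1% higher and 26% lower). The median difference, T2F3 minus WT, was 0.03 over the enzymes and -0.02 over all genes. After median centring of the libraries, 40.2% of all called genes were higher, against 51.3% as deposited, while the enzymes stayed at 7 higher and 3 lower.

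Aldoc gave the largest change among the 29 enzymes. It read 7.93, 7.84 and 7.84 in T2F3 MPP, against 6.06, 5.95, 6.14 and 5.91 in WT MPP. The libraries of each genotype lay close together and far from the other genotype, with 3.62-fold more in T2F3 (1.86 ± 0.13, SE, adjusted p = 5.37e-08). It was the only one of the 29 enzymes past the threshold with over 2-fold change here, where 5.16% of all genes tested had both. The other aldolase tested, Aldoa, stood at 0.17 ± 0.16 (adjusted p = 0.388).

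The enzymes next in order of p were Pgk1 and Taldo1. Pgk1, which forms the first ATP of glycolysis, read 11.80, 11.93 and 12.13 in T2F3 MPP, against 11.34, 11.27, 11.32 and 11.34 in WT MPP. It was 0.63 ± 0.12 higher (SE, adjusted p = 8.00e-04) with no overlap. Taldo1 read 11.04, 11.43 and 11.46 in T2F3 MPP and 10.79, 10.74, 10.69 and 10.77 in WT MPP. Its rise was 0.56 ± 0.11 (adjusted p = 0.00144), and T2F3 MPP 1 was the lowest of the mutant libraries. Pgam1 read 11.95, 12.14 and 12.22 in T2F3 MPP and 11.72, 11.66, 11.64 and 11.78 in WT MPP, a rise of 0.40 ± 0.11 (adjusted p = 0.0103, and 0.0585 without T2F3 MPP 3).

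Among the hexokinases Hk1 fell, and among the phosphofructokinases Pfkm fell and Pfkp rose. Hk1 read 10.48, 10.21 and 10.47 in T2F3 MPP, against 11.42, 11.26, 11.05 and 11.52 in WT MPP. All mutant libraries were lower, by 1.90-fold (-0.93 ± 0.19, SE, adjusted p = 0.00186), and with a covariate for the ribosomal protein level it was -0.48. Hk2 and Hk3 did not pass, with 95% intervals of -0.11 ± 0.34 and -0.27 ± 0.28. Hk3 did pass as lower without T2F3 MPP 1 (-0.40, adjusted p = 0.0350) and with only the groups compared (0.0449), and stood at -0.08 with the covariate. Pfkm read 8.58, 8.41 and 8.59 in T2F3 MPP and 9.09, 8.92, 8.97 and 9.07 in WT MPP, a difference of -0.48 ± 0.10 (adjusted p = 0.00199). Pfkp read 9.68, 9.95 and 10.10 in T2F3 MPP and 9.26, 9.31, 9.36 and 9.44 in WT MPP, and rose by 0.56 ± 0.13 (adjusted p = 0.00410). Neither gene overlapped between genotypes. Pfkl (-0.33, adjusted p = 0.183) and the kinase gene Pdk2 (-0.38, 0.0813) did not pass, although every T2F3 MPP library was lower. Both passed with only the groups compared (0.0177 for Pfkl and 0.0112 for Pdk2), and Pdk2 also under quantile normalization (-0.51, 0.0380). With the covariate Pfkl stood at 0.12 and Pdk2 at -0.03. Pfkfb2, the form of the bifunctional enzyme known from heart, read 8.52, 8.32 and 8.25 in T2F3 MPP and 8.86, 8.73, 8.84 and 8.78 in WT MPP, with no overlap. Its difference was -0.44 ± 0.09 (adjusted p = 0.00199).

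Ldha, the lactate dehydrogenase subunit that favours lactate, was 0.40 ± 0.12 higher in T2F3 MPP (SE, adjusted p = 0.0183) and Rpe was 0.41 ± 0.14 higher (adjusted p = 0.0252). Ldha lost its call without T2F3 MPP 2 (adjusted p = 0.0689), T2F3 MPP 3 (0.105) or WT MPP 3 (0.0505), and under quantile normalization (0.24, 0.0739). Rpe lost it without T2F3 MPP 2 (0.110), T2F3 MPP 3 (0.0553), WT MPP 1 (0.0678) or WT MPP 5 (0.0586), with no filter (0.0727), and with the ribosomal protein covariate (0.15, 0.316). The NADPH-forming enzymes G6pdx (0.06 ± 0.35, 95% interval) and Pgd (-0.14 ± 0.33) did not pass, nor did Gapdh (0.09 ± 0.33), Tpi1 (0.03 ± 0.30) and Pkm (0.13 ± 0.39). With the ribosomal protein covariate several of these did pass as higher: G6pdx at 0.42 (adjusted p = 0.00875), Gapdh at 0.38 (0.0435) and Pkm at 0.50 (0.00499), together with Aldoa at 0.46 (0.0124) and Tkt at 0.33 (0.0429). Ribosomal protein levels did not overlap between the genotypes in MPP. For these and the enzymes above, covariate and genotype therefore cannot be told apart in MPP.

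Other measures differed between these libraries too. Of 74 ribosomal protein genes, 59 rose in T2F3 MPP and 0 fell, and their median level ran from 13.33 to 13.35 in T2F3 MPP and from 12.64 to 12.70 in WT MPP. Among 16 genes of dendritic cells, 13 rose in T2F3 MPP, with summed levels from 15.45 to 16.27 in T2F3 MPP and from 13.27 to 13.91 in WT MPP. Flt3, the gene altered in T2F3 mice, is on that list but not among the 13. Of 17 monocyte and macrophage genes tested, 14 were higher and 0 lower, with summed levels from 14.52 to 15.15 in T2F3 MPP and from 13.40 to 13.81 in WT MPP. Of 14 erythroid genes tested, 13 were lower and 0 higher, from 11.57 to 11.66 in T2F3 MPP and from 12.26 to 12.62 in WT MPP, and 3 of the 20 listed were at 0 in every library. With the ribosomal protein covariate, 14 of 29 enzymes passed, 11 higher and 3 lower. That is 48.3%, against 30.5% of all genes in that fit, so the share of enzymes lay above that of all genes there and below it without the covariate. The ribosomal protein level did not overlap between the genotypes in MPP and hardly varied within either. Its slope therefore came mainly from the GMP libraries, and covariate and genotype cannot be told apart in MPP. Of 20 cell cycle genes, 1 was higher and 1 lower. Of 9 B lymphoid genes tested, 8 were lower and 0 higher, and of 10 basophil, mast cell and eosinophil genes, 8 were lower and 0 higher. Of 18 neutrophil genes, 1 was higher and 2 lower. Without the covariate, the shares called were 79.7% (ribosomal protein), 81.2% (dendritic), 82.4% (monocyte and macrophage), 92.9% (erythroid) and 10% (cell cycle). They were 88.9% (B lymphoid), 80% (basophil, mast cell and eosinophil) and 16.7% (neutrophil). Of all genes tested, 40.3% were called. The part of the cell type genes in the enzyme differences was not tested.

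**Figure D3:**
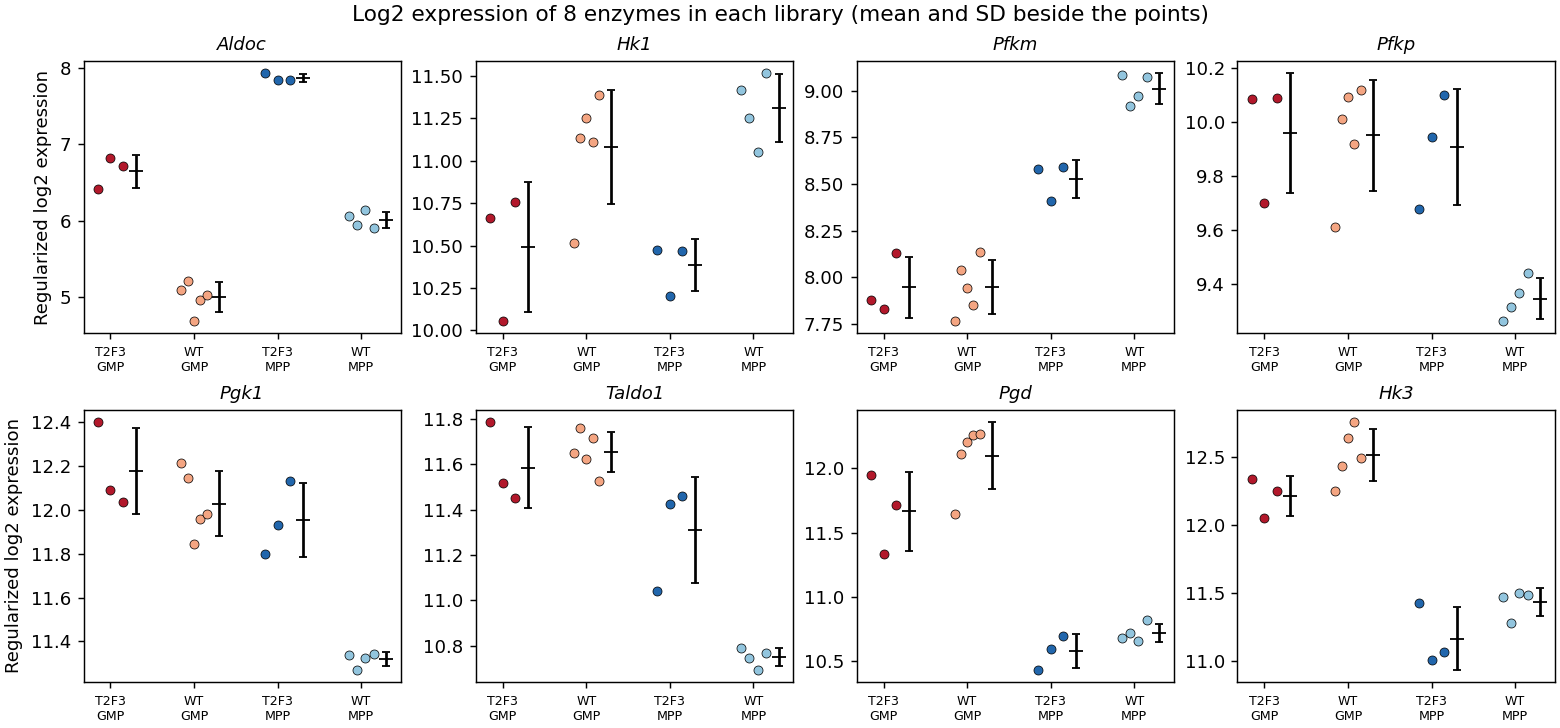
Regularized log2 expression of 8 enzymes in each of the 15 libraries, with the group mean and SD drawn beside the points. Aldoc is higher in T2F3 than in WT in both populations, with no overlap, Hk1 is lower in every T2F3 MPP library, and Pgd and Hk3 are higher in every GMP library than in any MPP library.

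The stretch of 250 bases upstream of the RefSeq starts is printed for the 5 enzymes with the smallest p among those higher in T2F3 MPP, because they moved in the same direction and their upstream sequences can be read against each other. The build is GRCm38.p6 and each line runs 5′ to 3′ on the gene's strand, ending at the base before the start. Capitals mark ACGTG or GCGTG, or their reverse complements CACGT and CACGC. That is the core bound by hypoxia-inducible factors, which are textbook activators of glycolytic genes. Aldoc has an upstream and a downstream start, and the values do not tell which was used. The regions are chr11:78322823-78323072 and chr11:78323948-78324197 for Aldoc, chrX:106186850-106187099 for Pgk1, chr7:141391910-141392159 for Taldo1 and chr19:41911621-41911870 for Pgam1, all on the plus strand, and chr13:6648772-6649021 for Pfkp on the minus strand.
Aldoc upstream start: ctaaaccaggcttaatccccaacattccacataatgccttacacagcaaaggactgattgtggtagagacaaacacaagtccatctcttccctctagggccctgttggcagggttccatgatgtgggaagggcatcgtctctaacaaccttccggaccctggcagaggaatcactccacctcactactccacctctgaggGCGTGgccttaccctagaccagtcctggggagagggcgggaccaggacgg
Aldoc downstream start: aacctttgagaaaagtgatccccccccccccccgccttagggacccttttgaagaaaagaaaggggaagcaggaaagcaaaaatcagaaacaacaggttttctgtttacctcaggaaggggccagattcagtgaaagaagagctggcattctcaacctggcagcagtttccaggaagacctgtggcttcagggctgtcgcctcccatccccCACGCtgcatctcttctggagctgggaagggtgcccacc
Pgk1: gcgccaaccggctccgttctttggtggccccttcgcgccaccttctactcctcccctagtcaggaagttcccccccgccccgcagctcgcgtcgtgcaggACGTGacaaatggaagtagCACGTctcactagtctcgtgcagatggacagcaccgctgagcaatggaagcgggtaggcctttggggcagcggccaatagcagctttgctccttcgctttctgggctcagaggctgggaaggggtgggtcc
Taldo1: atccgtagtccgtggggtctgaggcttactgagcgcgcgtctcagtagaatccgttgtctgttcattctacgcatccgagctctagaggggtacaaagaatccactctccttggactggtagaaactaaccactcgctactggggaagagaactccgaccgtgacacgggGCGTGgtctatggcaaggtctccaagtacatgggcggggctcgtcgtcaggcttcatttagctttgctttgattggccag
Pfkp: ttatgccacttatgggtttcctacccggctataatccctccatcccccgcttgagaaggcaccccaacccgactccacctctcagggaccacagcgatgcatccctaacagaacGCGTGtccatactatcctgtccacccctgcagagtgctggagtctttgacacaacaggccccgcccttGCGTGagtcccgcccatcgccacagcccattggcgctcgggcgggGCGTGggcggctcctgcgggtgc
Pgam1: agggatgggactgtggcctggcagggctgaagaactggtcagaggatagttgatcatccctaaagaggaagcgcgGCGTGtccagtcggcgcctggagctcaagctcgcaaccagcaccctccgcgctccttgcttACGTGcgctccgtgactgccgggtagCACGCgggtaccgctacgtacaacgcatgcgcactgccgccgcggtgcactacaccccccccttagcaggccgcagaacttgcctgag

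Pfkp and Pgam1 held 3 matches each, Pgk1 held 2, and the Aldoc starts and Taldo1 held 1 each. Over the 31 enzymes, which matched 48 starts, the core was found upstream of 37 starts, or 77.1%, against 38.6% of all 32851 starts in the table. The longer palindrome CACGTG, which contains the core on both strands and is bound by MYC-family factors, was found at 5 of 48 starts (10.4%), against 6.02% of all. The GC-rich letters GGGCGG stood at 25 of 48 (52.1%), against 32.7%. The table of all starts includes non-coding genes. These are matches of letters and show no binding.

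In GMP the genotype moved few of the enzymes. Of 29, 2 passed, Aldoc higher and Hk1 lower, or 6.90%, against 15.3% of all genes tested (9.25% higher and 6.04% lower). The groups did not overlap for 2 enzymes, Aldoc and Pgls, against 17% of all genes tested (9.52% higher and 7.49% lower). The median difference, T2F3 minus WT, was -0.09 over the enzymes and -0.02 over all genes. An unadjusted p below 0.05 was found for 7 of 29, but the share of all genes below that level was not counted. Without WT GMP 1, 9 passed, 1 higher and 8 lower, which is 31%, the same share as the 31% of all genes called in that fit. With T2F3 GMP 2 and WT GMP 1 both left out 4 passed, 1 higher and 3 lower, or 13.8%, against 17.9% of all genes. With the ribosomal protein covariate 6 passed, 2 higher and 4 lower, or 20.7%, against 23.8%.

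Aldoc read 6.41, 6.82 and 6.72 in T2F3 GMP, against 5.10, 5.22, 4.69, 4.97 and 5.03 in WT GMP. Every T2F3 library lay above every WT library, by 3.14-fold on average (1.65 ± 0.13, SE, adjusted p = 1.75e-07). Under every alternative tried it stayed between 1.44 and 1.77 and past the threshold. It was also the one enzyme past the threshold with over 2-fold change in this comparison, where 3.46% of all genes tested had both.

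Hk1 read 10.66, 10.06 and 10.76 in T2F3 GMP, against 10.51, 11.13, 11.25, 11.11 and 11.39 in WT GMP. The groups overlapped, because WT GMP 1 lay below T2F3 GMP 1 and 3. The difference was -0.59 ± 0.18 (SE, adjusted p = 0.0411). It missed the threshold without T2F3 GMP 1 (adjusted p = 0.0524), T2F3 GMP 2 (-0.37, 0.254), WT GMP 2 (0.0775), WT GMP 3 (0.0869), WT GMP 4 (0.0712) or WT GMP 5 (0.0980). With T2F3 GMP 2 and WT GMP 1 both left out it was -0.51 (adjusted p = 0.00656).

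Among the pentose phosphate enzymes, Pgd (-0.43 ± 0.15, SE, adjusted p = 0.0573), Rpia (-0.34, 0.0631) and Pgls (-0.33, 0.0640) had negative differences just short of the threshold. Pgls was the one of these whose groups did not overlap, reading 10.14, 9.99 and 10.17 in T2F3 GMP and 10.51, 10.61, 10.32, 10.39 and 10.32 in WT GMP. With T2F3 GMP 2 and WT GMP 1 left out, Pgd (-0.38, adjusted p = 0.0104) and Rpia (-0.28, 0.0465) passed as lower. Both also passed without T2F3 GMP 1, Pgd at -0.57 (0.0260) and Rpia at -0.48 (0.0178). With the ribosomal protein covariate Pgd (-0.32), Rpia (-0.26) and Pgls (-0.34) passed as lower and Pdk2 as higher (0.40, 0.0145, against 0.28 without it). Without WT GMP 1 alone Pgd and Rpia passed too, together with Hk3 (-0.37), Gpi1 (-0.40), Pfkl (-0.42), Gapdh (-0.38) and Pfkfb3 (-0.36). Of the 10 enzymes called in MPP, Aldoc and Hk1 passed here too. The differences of the other 8 did not pass: Pgk1 at 0.15 ± 0.24 (95% interval), Taldo1 at -0.07 ± 0.23, Pfkp at 0.01 ± 0.27, Pfkm at -0.0 ± 0.21, Pfkfb2 at 0.02 ± 0.19, Pgam1 at -0.04 ± 0.22, Ldha at -0.09 ± 0.25 and Rpe at 0.04 ± 0.27.

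Cell type genes again differed between the genotypes. Among 16 genes of dendritic cells, 14 rose in T2F3 GMP and 0 fell, with summed levels from 15.00 to 15.20 in T2F3 GMP and from 12.33 to 12.57 in WT GMP. Flt3, the gene altered in T2F3 mice, is on that list, among the 14 and in the summed level. Of 10 basophil, mast cell and eosinophil genes tested, 9 were lower and 0 higher, from 11.78 to 13.17 in T2F3 GMP and from 13.59 to 14.06 in WT GMP. Monocyte and macrophage genes were higher in 11 of 17 and lower in 0, from 15.65 to 16.27 in T2F3 GMP and from 14.99 to 15.29 in WT GMP. Erythroid genes were lower in 11 of 14 and higher in 0, from 11.39 to 11.53 in T2F3 GMP and from 11.69 to 12.09 in WT GMP, and B lymphoid genes were lower in 6 of 9 and higher in 0, from 8.65 to 8.96 in T2F3 GMP and from 8.89 to 9.42 in WT GMP. Neutrophil genes were lower in 1 of 18 and higher in 0. The shares called were 87.5% (dendritic), 90% (basophil, mast cell and eosinophil), 64.7% (monocyte and macrophage), 78.6% (erythroid), 66.7% (B lymphoid) and 5.56% (neutrophil). Of all genes tested, 15.3% were called. The part of these sets in the Aldoc and Hk1 differences was not tested.

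**Figure D4:**
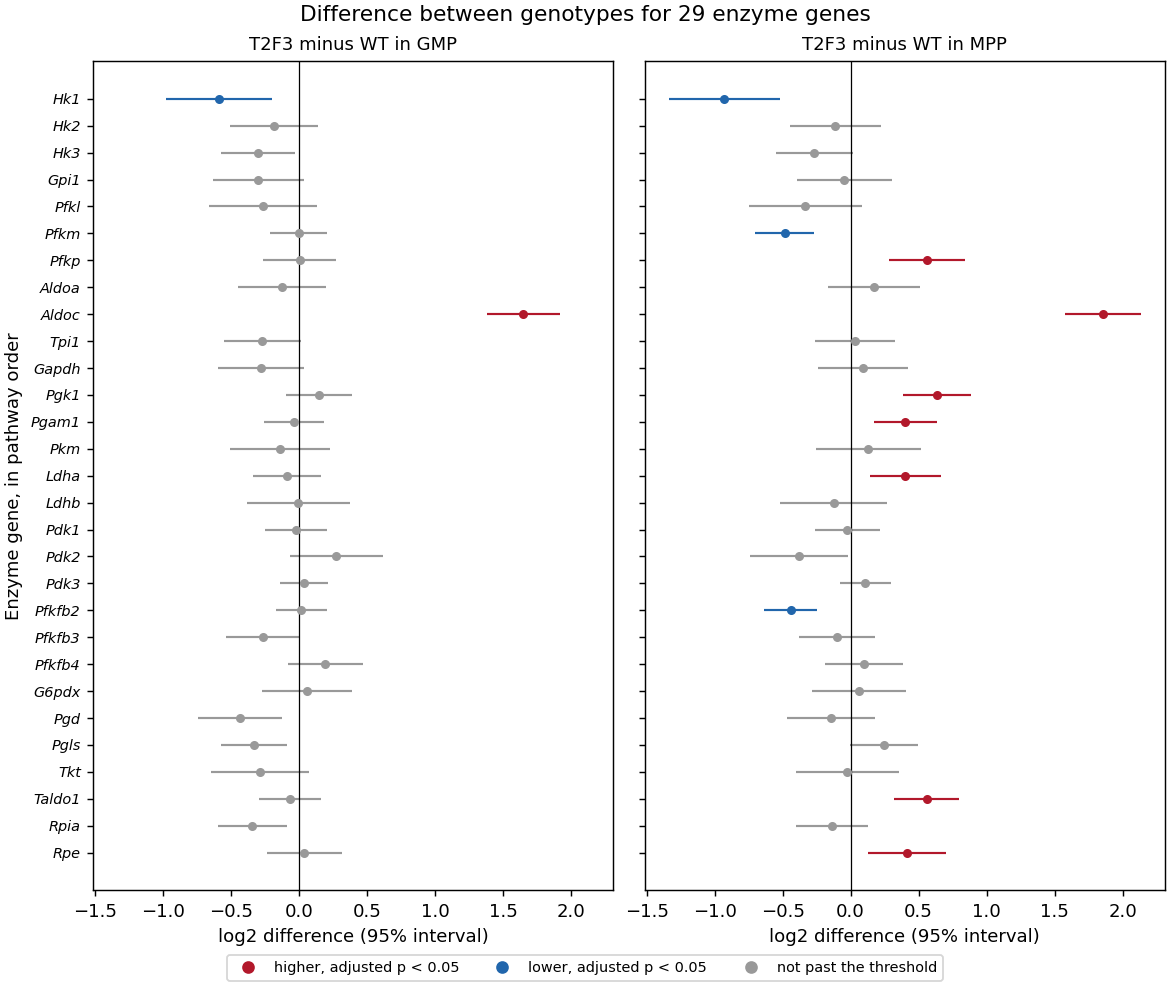
Log2 difference, T2F3 minus WT, of the 29 enzyme genes tested, in GMP on the left and in MPP on the right, with 95% intervals from the limma fit; red marks genes higher and blue genes lower at an adjusted p below 0.05. Aldoc lies far to the right in both panels, at 1.65 in GMP and 1.86 in MPP, and 10 genes pass in MPP against 2 in GMP.

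A direct comparison of genotype effects subtracted the effect in MPP from that in GMP. Of 29 enzymes, 1 passed, Taldo1, or 3.45%, against 2.26% of all genes tested (1.38% higher and 0.882% lower). Its effect was -0.07 in GMP and 0.56 in MPP, a difference of -0.63 ± 0.16 (SE, adjusted p = 0.0481). That call lay at the edge of the threshold: it was lost without any library other than T2F3 MPP 1, T2F3 GMP 1 and WT GMP 1, with adjusted p up to 0.167 (without T2F3 MPP 3). The next smallest p were those of Pfkfb2 (0.46, adjusted p = 0.0743), Pgls (-0.57, 0.0826) and Pfkm (0.48, 0.0865). In all, 9 of 29 enzymes had an unadjusted p below 0.05, but the share of all genes below that level was not counted. With T2F3 GMP 2 and WT GMP 1 left out, 5 enzymes passed, or 17.2%, against 9.92% of all genes in that fit, namely Pfkm (0.50), Pdk2 (0.65), Pfkfb2 (0.43), Pfkp (-0.51) and Taldo1 (-0.60). With the ribosomal protein covariate 11 passed, 1 higher and 10 lower, or 37.9%, against 8.16% of all genes in that fit. In MPP that level did not overlap between the genotypes, so covariate and genotype cannot be told apart there. After median centring the count was again 1, but the gene and the direction differed: Taldo1 missed the threshold (0.0602) and Pfkfb2 passed as higher (0.51, 0.0467). For Aldoc the difference between the effects was -0.21 ± 0.18 (adjusted p = 0.545), with a 95% interval of -0.21 ± 0.39. Over all genes, 74.5% of the calls were higher after median centring, against 60.9% as deposited. The 4 comparisons above share libraries in pairs, so their values are set side by side and not correlated.

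Differences between isozyme genes within a library show unequal change without depending on the scaling of the library. Pfkp minus Pfkm was at 1.87 to 2.21 in T2F3 GMP, 1.84 to 2.15 in WT GMP, 1.10 to 1.54 in T2F3 MPP and 0.18 to 0.39 in WT MPP, and shifted by 1.05 between genotypes in MPP and by 0.01 in GMP. In WT the same difference shifted by 1.67 between GMP and MPP, and in T2F3 by 0.63. The T2F3 MPP libraries thus lay between WT MPP and the GMP groups, without overlap on either side. Hk2 minus Hk1 averaged -0.52 ± 0.20 in T2F3 GMP (SD, n = 3), -0.93 ± 0.11 in WT GMP (SD, n = 5), -1.02 ± 0.24 in T2F3 MPP (SD, n = 3) and -1.84 ± 0.11 in WT MPP (SD, n = 4). It was higher in T2F3 than in WT in every library of either population. Aldoc minus Aldoa shifted by 1.77 between genotypes in GMP and by 1.68 in MPP. Ldha minus Ldhb averaged 3.92 ± 0.29 in T2F3 GMP, 4.0 ± 0.28 in WT GMP, 4.58 ± 0.50 in T2F3 MPP and 4.05 ± 0.19 in WT MPP (SD, n as above), and T2F3 MPP 1 lay within the WT MPP range. These pairs were chosen after values were seen and are given without a test.

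**Figure D5:**
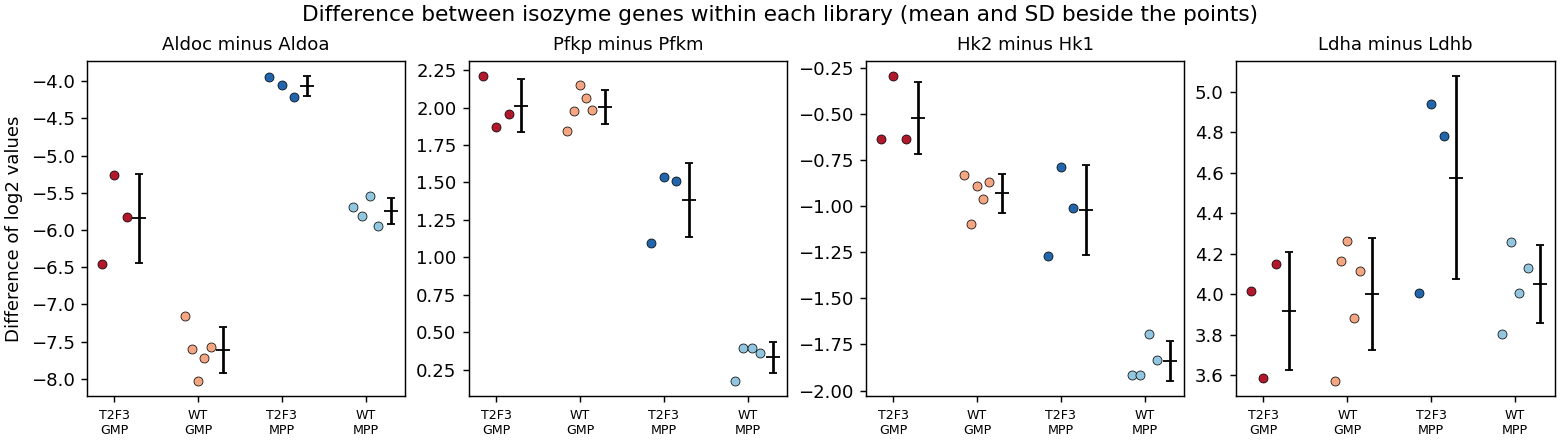
Difference of log2 values between isozyme genes within each of the 15 libraries for 4 pairs, with the group mean and SD beside the points; the height on the axis is not a ratio of transcript numbers, because the values are not scaled by gene length. Pfkp minus Pfkm rises in the order WT MPP, T2F3 MPP and the GMP groups, and Aldoc minus Aldoa is higher in T2F3 than in WT in each population.

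The neighbouring genes of the pathway moved in part. Of 8 glucose and lactate transporter genes tested, 4 were higher and 1 lower in T2F3 MPP, and 2 were higher and 1 lower in T2F3 GMP. These are 62.5% in MPP and 37.5% in GMP, against 40.3% and 15.3% of all genes. Slc2a6, a glucose transporter family member of white blood cells, read 7.13, 7.38 and 7.53 in T2F3 GMP, against 6.36, 6.71, 6.38, 6.28 and 6.45 in WT GMP, and 6.71, 7.33 and 7.04 in T2F3 MPP, against 6.0, 6.27, 6.0 and 5.84 in WT MPP. It was higher in every T2F3 library of either population, by 0.91 ± 0.15 in GMP (SE, adjusted p = 3.55e-04) and 1.0 ± 0.15 in MPP (adjusted p = 1.39e-04). Slc2a1, the GLUT1 transporter, rose by 0.52 ± 0.12 in T2F3 MPP (adjusted p = 0.00376), and Bsg, the partner of the lactate transporters, by 0.32. In GMP the GLUT3 gene Slc2a3 rose (0.44) and the lactate transporter Slc16a1 fell (-0.50).

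Of 17 other glycolytic isozymes and bypass enzymes tested, 1 rose and 3 fell in T2F3 MPP, and 1 rose and 3 fell in T2F3 GMP, or 23.5% in each, against 40.3% of all genes in MPP and 15.3% in GMP. Pklr, the pyruvate kinase of liver and red cells, read 4.14, 4.54 and 4.31 in T2F3 GMP, against 5.78, 6.27, 5.74, 5.34 and 5.28 in WT GMP. In MPP it read 4.42, 4.23 and 4.22 in T2F3 MPP, against 7.26, 7.18, 7.04 and 6.71 in WT MPP. The groups lay apart in each population, and the summed level of the erythroid genes moved the same way, from 11.39 to 11.53 in T2F3 GMP, 11.69 to 12.09 in WT GMP, 11.57 to 11.66 in T2F3 MPP and 12.26 to 12.62 in WT MPP. The part of the erythroid genes in the Pklr difference was not tested. Tigar, a phosphatase that lowers fructose-2,6-bisphosphate, rose in T2F3 MPP (0.50 ± 0.14, SE, adjusted p = 0.0137), and Pck2, a mitochondrial enzyme of glucose synthesis, fell (-0.33). In T2F3 GMP the muscle enolase Eno3 was 0.35 higher (adjusted p = 0.0484) and the phosphoglucomutase Pgm2 fell (-0.30). Of 8 other pentose phosphate and ribose enzymes, 0 passed in either genotype comparison.

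At the exit of the pathway the shares called, counting both directions, lay near or below those of all genes in the genotype comparisons. In MPP, however, all calls at the exit were higher in T2F3. In detail, 3 of 11 genes of pyruvate entry and the pyruvate dehydrogenase complex rose in T2F3 MPP and 0 fell, among them the phosphatases Pdp1 (0.40) and Pdp2 (0.46), which switch the complex on, and the pyruvate carrier Mpc2 (0.81). That is 27.3%, against 40.3% of all genes called in either direction and 20.7% called higher. In T2F3 GMP 0 rose and 1 fell, the subunit gene Dlat (-0.37 ± 0.10, SE, adjusted p = 0.0177). In T2F3 MPP, 8 of 21 citrate cycle genes were higher and 0 lower, or 38.1%. Of all genes there, 40.3% were called in either direction and 20.7% were called higher. In T2F3 GMP 0 of the 21 passed, against 15.3% of all genes. Suclg1, a subunit of succinyl-CoA ligase, rose by 0.47 in MPP, the malate dehydrogenase Mdh1 by 0.50 and the fumarase Fh1 by 0.69. In the step to GMP, 1 of the 21 was higher and 0 lower in T2F3 (4.76%, against 22.2% of all genes), and 15 were higher and 0 lower in WT (71.4%, against 48.6%).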

How the data were processed

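A strand-preserving Illumina mRNA kit was used for the RNA-seq libraries, per the labels' protocols. Regularized log2 values of 24424 genes in 15 libraries were deposited by the authors as 1 table; STAR, Bowtie, HOMER, DESeq2 and the mm9 build are named without roles or versions, per the submitters' processing notes. The regularized log shrinks low genes, so their differences are understated. The deposited log2 values hold no counts, so depth is unknown. Symbols for 24345 Entrez IDs were found in the GRCm38.p6 RefSeq table. Promoter sequences came from RefSeq in that build. Libraries were mapped by genotype, number and population in the column names. The 41 other samples were not analysed here.

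The 12133 genes averaging 4 or more were tested in 1 limma fit (version 3.58.1, R 4.3.3; trend and robust eBayes) with a mean per group, two-sided, adjusted by Benjamini-Hochberg over all genes, at a threshold of 0.05. The fit was also run on simulated data with independent noise for each gene. Those data hold no shift shared by the genes of a library, so they do not test the effect of libraries that stood apart. Enzymes given library by library were, per comparison, up to 8 with the smallest p among those called without overlap. Hk1 and Pgls in GMP lie outside that rule and were added after their values were seen. Of each pathway list, up to 3 called genes per genotype comparison were named. The enzymes, lists and alternatives were chosen with earlier results of these data known. Alternatives were filters, a pseudocount, scalings, other fits, a replicate block, a ribosomal protein covariate and left-out libraries. Figures used Python 3.11.15 and Matplotlib 3.10.9.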

Additional observations from a re-analysis of the deposited data

Results flagged for a closer look

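The libraries of each WT group were examined, gene by gene, for a value far from the others. Of 62 combinations of an enzyme and a group, 9 had one. A rate of about 1 in 20 would hold for independent values, but the enzymes of a library need not be independent. How often all genes have such a value was not counted, so the 9 are not shown to be many. Of the 9, 7 were low values in WT GMP 1, the library with raised ribosomal protein genes. Pkm read 12.92 there, against 13.44 to 13.51 in the other WT GMP libraries. Gpi1 read 12.85, against 13.24 to 13.38. Pdk2 read 5.77, against 6.39 to 6.54. The pentose phosphate enzymes were low in the same library: G6pdx at 10.42, Pgd at 11.64, Tkt at 13.11 and Rpia at 10.11, where the others lay at 10.91 to 11.08, 12.11 to 12.27, 13.57 to 13.69 and 10.46 to 10.54. The remaining 2 were Hk3 at 11.28 in WT MPP 3, against 11.46 to 11.50, and Pdk1 at 9.99 in WT GMP 5, against 9.88 to 9.91.

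Taldo1 differed in its genotype effect between the populations, by -0.63 (GMP minus MPP, adjusted p = 0.0481 by limma), with an effect of -0.07 in GMP and 0.56 in MPP.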

How the results depend on the processing

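In MPP 7 of the 10 called enzymes kept the call under every alternative run, in GMP 1 of 2 (Aldoc), in the WT step 21 of 25, in the T2F3 step 7 of 13 and for the difference of effects 0 of 1. With single libraries left out, the number of enzymes called ran from 7 to 12 in MPP, 1 to 9 in GMP, 25 to 26 for the WT step, 8 to 14 for the T2F3 step and 0 to 4 for the difference of effects. The share of all genes called moved too. The 7 and 12 in MPP were 24.1% and 41.4%, against 23.8% and 37.3% of all genes in those fits. In GMP the 9 were 31%, against 31%, and the 1 was 3.45%, against 9.68% to 12.5%. The 26 were 89.7%, against 42.2%, the 8 and 14 were 27.6% and 48.3%, against 17.1% and 21.5%, and the 4 were 13.8%, against 4.83%. The GMP count of 2 was 1 with no filter and with only the groups compared (3.45%, against 6.08% and 9.73% of all genes). It was 6 with the ribosomal protein covariate and 4 without T2F3 GMP 2 and WT GMP 1. The count of 1 for the difference of effects was 0 with no filter or a minimum mean of 6, 2 under quantile normalization (Pfkfb2 higher and Taldo1 lower), 1 after median centring (Pfkfb2 higher in place of Taldo1), 11 with the covariate and 5 without those libraries. Tkt changed sign in MPP with the covariate (0.33, adjusted p = 0.0429, against -0.02); the cause was not tested. The number of all genes called moved by over 1.5 times in GMP (1855) to 3759 without WT GMP 1, 1174 without T2F3 GMP 2, 1180 with only the groups compared and 2887 with the covariate, in the T2F3 step (2690) to 4215 with the covariate, and for the difference of effects (274) to between 79 and 1204. In MPP (4889) it was 2859 without T2F3 MPP 2, 2892 without T2F3 MPP 3 and 2732 with the number block. For equal replicate numbers in MPP and GMP of a genotype, correlations of deviations were positive and ran from 0.06 to 0.46. Equal numbers of different genotypes cannot be 1 animal, and there the correlations ran from -0.33 (GMP 1) to 0.52 (GMP 3). Of 14 libraries, 9 correlated best with their own number, among 3 to 5 libraries of the other population. The number that chance would give was not computed. Whether equal numbers mark the same animal is not given in the labels. With the replicate number as a block 8 enzymes passed in MPP, 1 in GMP, 25 and 12 in the WT and T2F3 steps and 0 for the difference, with Ldha (0.0745) and Rpe (0.0902) lost in MPP. These are 27.6%, 3.45%, 86.2%, 41.4% and 0%, against 22.5%, 10.7%, 46.3%, 21.9% and 1.99% of all genes. With genotype and number as 1 animal the counts were 10, 2, 25, 14 and 1. These are 34.5%, 6.9%, 86.2%, 48.3% and 3.45%, against 40%, 15.4%, 50.9%, 24.4% and 3.3% of all genes. Depth is unknown, so no limit from counting could be set.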

Other observations

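Of 8 tested genes of hypoxia-inducible factors and their hydroxylases, 1 rose and 2 fell in T2F3 MPP, and 1 rose in T2F3 GMP, or 37.5% and 12.5%, against 40.3% and 15.3% of all genes. Vhl, which marks these factors for breakdown, read 9.17, 9.25 and 9.05 in T2F3 GMP, against 8.75, 8.56, 8.43, 8.55 and 8.44 in WT GMP, and 8.93, 9.43 and 9.32 in T2F3 MPP, against 8.22, 8.38, 8.31 and 8.25 in WT MPP. It was higher without overlap in each population, by 0.61 ± 0.11 in GMP (SE, limma adjusted p = 7.22e-04) and 0.94 ± 0.11 in MPP (adjusted p = 1.05e-05). Hif3a (-1.40) and the hydroxylase Hif1an (-0.43) fell in MPP. Of 16 other hypoxia target genes tested, 4 rose and 0 fell in each population, or 25%, against 40.3% of all genes in MPP and 15.3% in GMP. Ankrd37 rose by 0.79 in GMP and 0.81 in MPP, the mitophagy gene Bnip3 by 0.98 in MPP, and Ddit4, an inhibitor of mTOR signalling, by 0.90 in GMP.

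Of 15 NADPH and glutathione enzymes, 4 rose and 4 fell in T2F3 MPP, and 0 rose and 1 fell in T2F3 GMP, or 53.3% and 6.67%, against 40.3% and 15.3% of all genes. Nqo1 rose by 0.93 ± 0.22 in MPP, while the heme oxygenase Hmox1 (-0.93) and Gclm (-0.53), a subunit of the enzyme that starts glutathione synthesis, fell. In GMP the glutathione reductase Gsr fell (-0.39, adjusted p = 0.0395).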
